A study of Caenorhabditis elegans with 16 samples.

Results

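The ceh genes of Caenorhabditis elegans were followed in an ATAC-seq study of chromatin accessibility, which counts transposase insertions in open DNA. A ceh gene was any gene whose Ensembl name on the WBcel235 assembly starts with ceh-, with ceh-13 left out, and its accessible regions were the merged peaks that overlapped the gene body or the 1000 bases upstream of it. The rule gave 62 genes, all protein-coding, and 76 of the 29131 peaks of the series. Of the 62 genes, 35 had at least 1 peak and 27 had none. The samples were whole L1 larvae of 4 strains with 4 libraries each, 16 in all. The rpoa-2::degron strain and the rrb-1::degron strain carried no TIR1 and were collected after 18 h. The same degrons with eft-3p::tir-1 were collected after 24 h. All 4 strains were grown at 23 °C on 1 mM auxin. RPOA-2 is a core catalytic subunit of RNA polymerase I, which transcribes ribosomal RNA, and the gene labelled rrb-1 encodes GRWD-1, an assembly factor of the large ribosomal subunit. TIR1, under the broadly active eft-3 promoter, lets auxin degrade a degron-tagged protein. The strains with TIR1 are called depleted and those without it undepleted. Depletion cannot be told apart from the TIR1 transgene, the strain or the later collection. The larvae of a strain were grown together and then split into the 4 replicates, so p-values measure the spread between libraries of shared larvae.

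Homeobox genes encode transcription factors that bind DNA through a homeodomain. In C. elegans, many of them act as selectors of cell identity, above all in neurons, where combinations of homeodomain proteins distinguish neuron classes. The ceh genes span several homeodomain classes, among them the POU, sine oculis, LIM, paired-like, NK, CUT and PBC classes. Because most are active in few cells, whole larvae mix their open and closed states, and fewer cells with an open region cannot be told apart from a less open region in each cell.

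The 16 libraries held 2337415 to 13010378 reads in peaks. A ceh peak held 7 to 1602 reads in a library, and 39 of the 76 fell under 50 reads in at least 1 library. Peaks at 18 marker genes of neurons, muscle, pharynx, intestine, epidermis and germ line were counted in the same way. The summed level of the neuronal marker peaks was 406 to 497 CPM (read counts scaled to the TMM-adjusted library total) in RPOA-2 undepleted larvae, 447 to 556 in RPOA-2 depleted larvae, 475 to 553 in GRWD-1 undepleted larvae and 445 to 604 in GRWD-1 depleted larvae. The neuronal ranges overlapped within each pair, as did those of muscle, pharynx, epidermis and germ line. The 2 intestinal markers with a peak summed to 114 to 142 and 106 to 123 CPM in the RPOA-2 pair and to 110.2 to 132.0 and 97 to 110.0 CPM in the GRWD-1 pair, undepleted first, and the GRWD-1 ranges did not overlap. Among the 59 marker peaks, a peak of the neuronal gene unc-104, a kinesin of synaptic vesicle transport, fell in both depletions, with log2 fold changes of -0.40 and -0.68, and no other was called in either. This was 1.69% of the marker peaks in each depletion, against 1.69% of all peaks in RPOA-2 depletion and 1.38% in GRWD-1 depletion. In the average of both depletions, 2 of the 59 marker peaks were called (3.39%, against 4.41% of all peaks). The unc-104 peak fell, and a peak of the neuronal gene unc-119 rose, with a log2 fold change of 0.24 (edgeR adjusted p = 0.0281). There, 8 of the 13 neuronal marker peaks had a positive value, with a median of 0.05. Positive values were held by 9 of 16 muscle, 4 of 12 pharyngeal, 4 of 13 epidermal, 0 of 2 intestinal and 2 of 3 germ line peaks. In GRWD-1 depletion alone, 1 of the 13 epidermal peaks had a positive value and 12 a negative one. The part of these marker levels in the results at ceh peaks was not tested.

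The share of ceh genes with a peak was 56.5%, against 61.0% of the 19973 protein-coding genes and 89.7% of 39 other homeobox genes. The other homeobox genes were longer, with a median of 4858 bases against 2735 for the ceh genes and 2027 for all protein-coding genes. The part of gene length in these shares was not tested. Most genes with peaks had few, since 11 had 1, 12 had 2 and 9 had 3. The 3 genes with more were ceh-88 with 4, ceh-43 with 6 and ceh-18 with 7. Both POU genes had peaks, ceh-6, which acts in the excretory canal, and ceh-18, which acts in the gonadal sheath. So did ceh-14, the 1 LIM gene, 6 of 8 paired-like genes, 2 of 3 sine oculis genes, 8 of 19 NK and other ANTP genes, 3 of 6 CUT genes and 1 of 3 PBC genes.

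**Figure D1:**
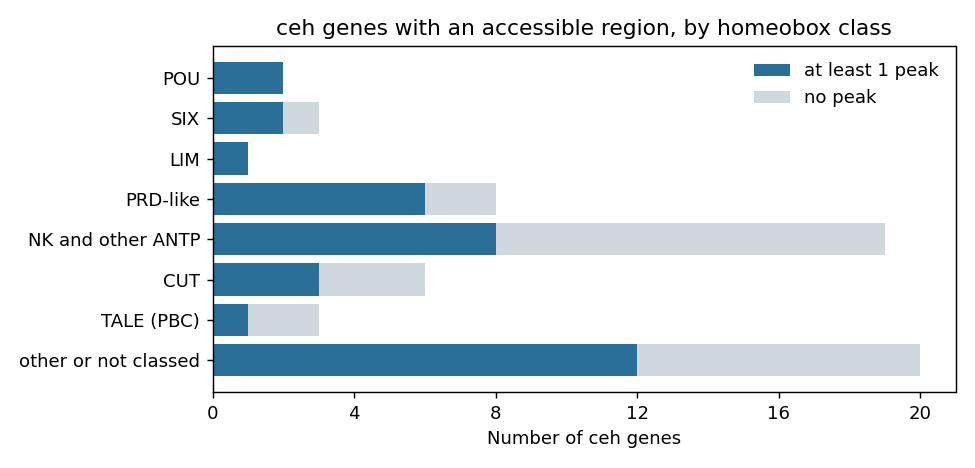
Number of ceh genes with at least 1 peak (dark) and without a peak (light) in each homeobox class, out of 62 genes. All POU and LIM genes had a peak, against 8 of 19 NK and other ANTP genes.

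Among 23 ceh genes listed for a well-known role, 7 had no peak. They were ceh-12, the ortholog of HB9 in motor neurons, ceh-17, the ortholog of Phox2, ceh-24, ceh-28, ceh-48, ceh-51 and ceh-60. No peak here means only that none was called in the merged list of whole larvae. A promoter peak, one that overlapped any part of the 1000 bases upstream or the first 250 bases of the gene, was present at 29 of the 62 ceh genes, or 46.8%, against 43.5% of all protein-coding genes. Of the 79 pairs of a ceh gene and a peak, 50.6% were promoter peaks, against 39.7% for all protein-coding genes and 27.2% for the other homeobox genes. The ceh peaks were 150 to 1991 bases long. Coding exons were touched by 42 peaks, 5′ UTRs by 17 and 3′ UTRs by 8, while 9 lay only in introns and 17 only upstream. Of the 76 peaks, 32 also touched another gene, and 3 belonged to a pair of neighbouring ceh genes.

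Accessibility per length at the ceh peaks was like that of the peaks of the series as a whole. The median was 52.3 CPM per kb, with a range of 24.9 to 129.5, and the median of all 29131 peaks was 52.4 with an interquartile range of 47.1 to 59.6. Of the 76 peaks, 38 lay below the median of all peaks and 6 lay in the highest decile. The 40 promoter peaks had a median of 54.2 CPM per kb and the 36 others 50.1. By class, the median was 62.1 CPM per kb over 3 PBC peaks, 61.2 over 8 CUT peaks and 54.5 over 3 sine oculis peaks, and it was 49.1 to 51.8 in the other classes.

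**Figure D2:**
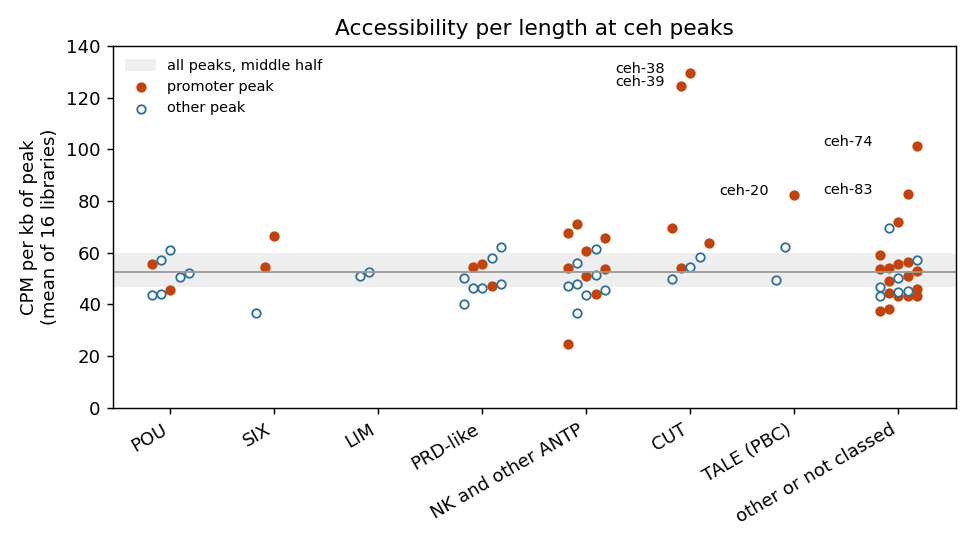
Accessibility of each ceh peak in CPM per kb of peak (mean of 16 libraries) by homeobox class, with promoter peaks filled and other peaks open. The grey band is the interquartile range of all 29131 peaks (47.1 to 59.6) and the line their median, and ceh-38 and ceh-39 stood highest at 129.5 and 124.6.

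The highest levels per length stood at the 5′ ends of 5 genes. The CUT gene ceh-38 led with 129.5 CPM per kb at its 5′ UTR (II:6951295-6951912), in a peak that also touched malt-1. The CUT gene ceh-39, an X signal element that counts X chromosomes in sex determination, followed with 124.6 at its 5′ UTR (X:1856085-1856729), in a peak that also touched T26C11.10. The 5′ end of ceh-74 had 101.1 (V:14177575-14178143), in a peak that also touched cest-2.3. That of ceh-83 had 82.7 (II:1736350-1736788), and the region upstream of ceh-20, the ortholog of extradenticle and PBX, had 82.3 (III:6978319-6979652). The lowest level was 24.9 at the 5′ end of ceh-16 (III:8622769-8622924), the engrailed ortholog that acts in seam cells, where 7 to 46 reads were counted per library. Next came an exon of ceh-34, a sine oculis gene of pharyngeal neurons, with 36.5, and an exon of ceh-30, a BarH-related gene, with 36.7, in a peak that also touched C33D12.9.

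The level of the strongest promoters moved with the library. Over the 5 highest peaks and the 4 strains, replicate 2 was the highest of its strain in 15 of 20 cases. Over all 76 ceh peaks it was highest in 80 of 304. At ceh-38, RPOA-2 undepleted larvae had 64.1, 80.4, 73.9 and 65.4 CPM and RPOA-2 depleted larvae 80.8, 134, 63.5 and 66.1 CPM in replicates 1 to 4. GRWD-1 undepleted larvae had 84.4, 102, 65.5 and 62 CPM and GRWD-1 depleted larvae 77.5, 116, 82.8 and 62.5 CPM. In every strain the second library was highest, and the depleted and undepleted libraries overlapped. The share of a library's reads in the decile of all peaks with the highest level per length was 28.8% to 40.2%, and it was largest in replicate 2 in RPOA-2 depleted larvae with 38.8%, in GRWD-1 undepleted larvae with 37.6% and in GRWD-1 depleted larvae with 40.2%. In RPOA-2 undepleted larvae it was 34.3% in replicate 2 and 34.4% in replicate 4. The study's methods state that 1 replicate of every strain was handled together in each of 4 batches, while the labels do not tie a replicate number to a batch. Its part in the results was not tested.

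The depletion comparisons asked whether ceh regions opened or closed when ribosome synthesis was disrupted at RNA polymerase I or at large subunit assembly. The test called 1 ceh peak in RPOA-2 depletion and 0 in GRWD-1 depletion, and a peak that was not called may still have changed. In RPOA-2 depletion, 1 of 76 ceh peaks rose and 0 fell at an adjusted p under 0.05 (edgeR quasi-likelihood test, Benjamini-Hochberg over all peaks), where 1.69% of all peaks were called, 1.2% higher and 0.487% lower. Of the 76, 31 (40.8%, against 47.7% of all peaks) were control peaks for the factors of unwanted variation. Control peaks were picked for an adjusted p of at least 0.75 in DESeq2 for RPOA-2 depletion, so that comparison could hardly call them. In GRWD-1 depletion, 0 of 76 were called, where 1.38% of all peaks were, 0.57% higher and 0.81% lower, and DESeq2 also called 0. At an unadjusted p under 0.05 there were 14 ceh peaks in RPOA-2 depletion, or 18.4%, against 12.3% of all peaks, and 5 in GRWD-1 depletion, or 6.58%, against 10.8% of all peaks. With the effects of both depletions averaged, 3 of 76 rose and 0 fell, where 4.41% of all peaks were called, 2.49% higher and 1.93% lower. The called shares of the ceh peaks were 1.32% in RPOA-2 depletion and 3.95% in the average.

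The changes at ceh peaks were small. The largest absolute log2 fold change was 0.49 in RPOA-2 depletion and 0.48 in GRWD-1 depletion, and the medians were 0.01 and 0.02, against 0.0035 and 0.0058 for all peaks. The sign was the same in both depletions for 38 of the 76 peaks. The median 95% interval reached 0.27 to each side in RPOA-2 depletion and 0.25 in GRWD-1 depletion, and all 76 intervals lay within a log2 fold change of 1 to either side of 0 in both. Of all 29131 peaks, 28934 in RPOA-2 depletion and 29076 in GRWD-1 depletion also had intervals within 1. Changes at ceh peaks smaller than their intervals could not be told from 0 with these libraries. The variance between libraries of a strain was 1.87 to 11.8 times the counting variance (chi-square per degree of freedom over 24 pairs).

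**Figure D3:**
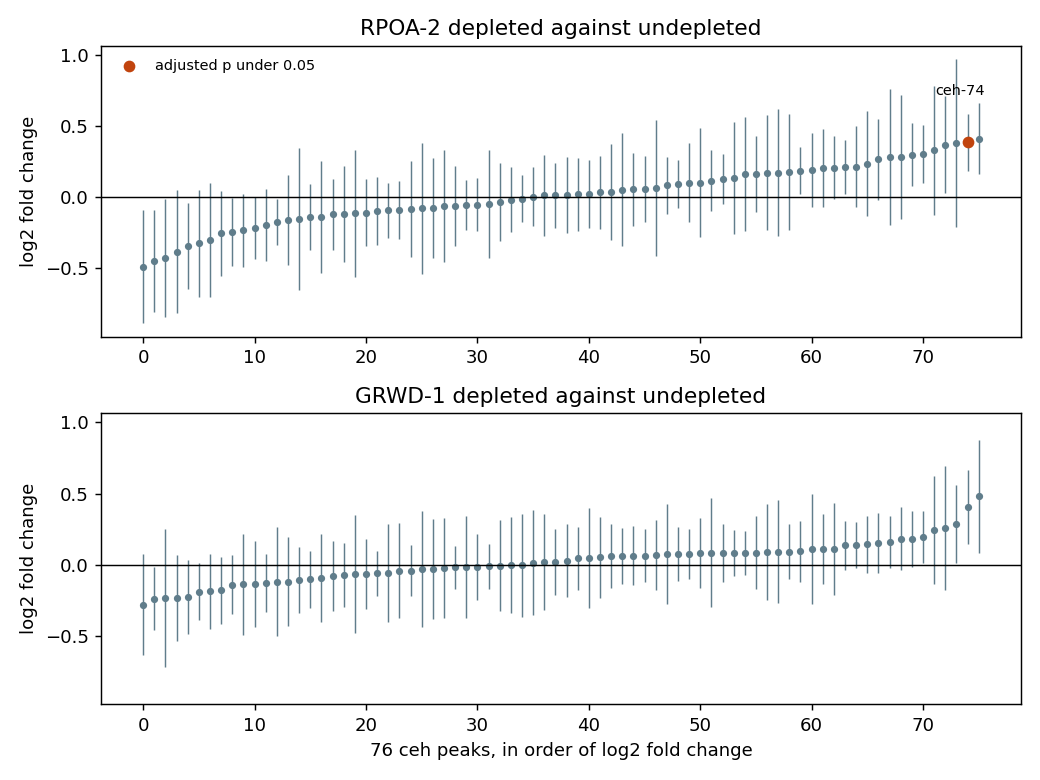
Log2 fold change of each of the 76 ceh peaks, in order of size, for RPOA-2 (upper) and GRWD-1 (lower) depleted against undepleted larvae, with 95% intervals from the edgeR fit. The peak at ceh-74 is the 1 with an adjusted p under 0.05, in RPOA-2 depletion.

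The called peak in RPOA-2 depletion lay over the start of ceh-74 and also touched cest-2.3. RPOA-2 undepleted larvae had 41.3, 50.2, 48.7 and 48.3 CPM there, and RPOA-2 depleted larvae had 57.8, 93.0, 61.4 and 52.9 CPM. All 4 depleted libraries were above all 4 undepleted ones, with replicate 2 far above the others, and the log2 fold change was 0.39 (SE 0.10, edgeR adjusted p = 0.0219). GRWD-1 undepleted larvae had 55.7, 62.9, 54.8 and 41.6 CPM, GRWD-1 depleted larvae had 59.6, 91.1, 56.5 and 44.9 CPM, and these overlapped, with a log2 fold change of 0.19 (SE 0.09, edgeR adjusted p = 0.412). Averaged over both depletions, the log2 fold change was 0.29 (SE 0.07, edgeR adjusted p = 0.0036). The RPOA-2 call was lost in 8 of 16 cases when 1 library was left out (any RPOA-2 undepleted library, RPOA-2 depleted 2 or 3, GRWD-1 undepleted 1 or GRWD-1 depleted 3). In each of these fits the control peaks were also picked anew, so the library and the control peaks changed together. Without RPOA-2 depleted replicate 2, the RPOA-2 value was 0.20 (edgeR adjusted p = 0.831), and it was 0.08 (edgeR adjusted p = 0.916) when all peaks served as control peaks for the factors of unwanted variation.

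The second peak that rose in the average of both depletions lay in the 3′ UTR of ceh-8, the ortholog of the eye-field gene Rx (I:8245422-8245857), and also touched ZK265.11. It had 17.2, 28.1, 22.1 and 21.3 CPM in RPOA-2 undepleted larvae and 28.1, 32.5, 31.3 and 32.2 CPM in RPOA-2 depleted larvae. GRWD-1 undepleted larvae had 23.3, 29.0, 23.5 and 27.3 CPM, and GRWD-1 depleted larvae had 20.7, 38.1, 33.5 and 26.6 CPM. The RPOA-2 libraries met at 28.1 CPM and the GRWD-1 libraries overlapped. The averaged log2 fold change was 0.30 (SE 0.08, edgeR adjusted p = 0.0222), from 0.41 in RPOA-2 depletion (edgeR adjusted p = 0.0687) and 0.18 in GRWD-1 depletion (edgeR adjusted p = 0.589).

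The third lay in a coding exon of ceh-86 and touched no other gene (II:2427095-2427507). RPOA-2 undepleted larvae had 16.0, 18.4, 17.3 and 16.7 CPM and RPOA-2 depleted larvae 21.5, 19.5, 18.4 and 22.4 CPM. GRWD-1 undepleted larvae had 13.4, 15.1, 16.8 and 14 CPM and GRWD-1 depleted larvae 20.2, 18.7, 21.3 and 16.9 CPM. All 4 GRWD-1 depleted libraries were above all 4 undepleted ones. The averaged log2 fold change was 0.34 (SE 0.10, edgeR adjusted p = 0.0257), from 0.27 in RPOA-2 depletion (edgeR adjusted p = 0.455) and 0.41 in GRWD-1 depletion (edgeR adjusted p = 0.112). Leaving out 1 library ended the averaged call of ceh-74 in 4 of 16 cases (RPOA-2 undepleted 1 or 3, RPOA-2 depleted 2, GRWD-1 undepleted 2), with edgeR adjusted p up to 0.696. The same 4 cases and RPOA-2 undepleted 4, RPOA-2 depleted 4 and GRWD-1 depleted 3 ended that of ceh-8 (7 of 16, up to 0.495), and the same 4 and RPOA-2 depleted 4, GRWD-1 undepleted 1 and GRWD-1 depleted 1 and 3 ended that of ceh-86 (8 of 16, up to 0.229). With all peaks as control peaks, the edgeR adjusted p was 0.918 for ceh-74, 0.399 for ceh-8 and 0.204 for ceh-86.

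**Figure D4:**
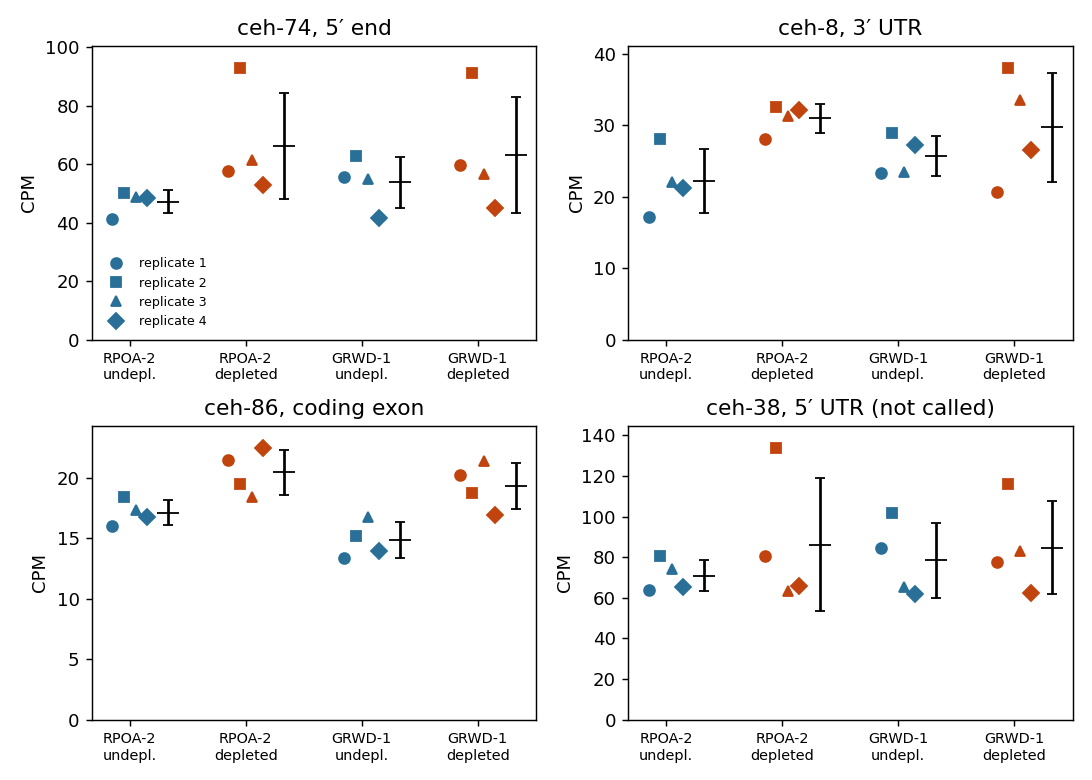
CPM per library at the ceh-74, ceh-8, ceh-86 and ceh-38 peaks, with replicates as symbols, undepleted strains in blue, depleted strains in red, and the mean with SD (n = 4) in black. At ceh-74 and ceh-38, replicate 2 was highest in all 4 strains.

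The next 8 peaks by unadjusted p in the averaged comparison did not pass the test. The 5′ end of ceh-83 came closest, with an averaged log2 fold change of 0.22 (SE 0.08, edgeR adjusted p = 0.0756). Its RPOA-2 depleted libraries, with 37.5, 45.6, 39.3 and 36.8 CPM, were all above the undepleted ones, with 26.9, 35.1, 29.3 and 35.4 CPM. An exon peak at the start of ceh-10, the Vsx ortholog needed for the AIY interneurons, also touched polq-1 and had a log2 fold change of -0.27 (edgeR adjusted p = 0.13). There, RPOA-2 depleted larvae had 15.6, 16.3, 15.9 and 16.9 CPM, all below the undepleted 22, 17.5, 26.9 and 17.5 CPM. The other 6 were 2 peaks at the 5′ side of ceh-100 with 0.41 and 0.18, the upstream peak of ceh-20 with 0.13, the 5′ peak of ceh-39 with 0.14, an intronic peak of ceh-18 with -0.29 and an upstream peak of ceh-99 with -0.27. Of these, the ceh-100 peak with 0.18 also touched lips-15, the ceh-39 peak T26C11.10 and the ceh-99 peak T21B4.20.

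Some ceh peaks separated the groups fully. In RPOA-2 depletion, all 4 depleted libraries were higher at 2 peaks (2.63%, against 2.13% of all peaks), those of ceh-74 and ceh-83. They were lower at 1 (1.32%, against 2.49% of all peaks), that of ceh-10. In GRWD-1 depletion they were higher at 3 peaks (3.95%, against 1.76% of all peaks). These lay at ceh-86, at a peak shared by ceh-81 and ceh-82, and in an exon of ceh-18. The GRWD-1 depleted libraries were lower at 1 (1.32%, against 2.12% of all peaks), that of ceh-16.

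None of the 10 promoter peaks at genes with a well-known role passed the test in either depletion. Here a promoter peak lay over the 5′ end of the longest transcript, or else was the nearest one upstream. In RPOA-2 depletion, the log2 fold change was -0.43 at ceh-18, 0.21 at ceh-39 and 0.18 at ceh-20 (edgeR unadjusted p = 0.042, 0.0294 and 0.0288). The others had an edgeR unadjusted p of at least 0.14 there. Those of ceh-2, ceh-32, ceh-34, ceh-38 and ceh-43 were control peaks, which RPOA-2 depletion could hardly call. The 5′ peak of ceh-43, the Distal-less ortholog of dopaminergic neurons, also touched C28A5.12 and WBGene00014268. It had 42.7 ± 6.73 and 45.1 ± 9.98 CPM (SD, n = 4) in RPOA-2 undepleted and depleted larvae, and 41.3 ± 5.68 and 47.1 ± 7.71 CPM in the GRWD-1 pair. The 5′ peak of ceh-32, a sine oculis gene, also touched W05E10.12, W05E10.16 and W05E10.20. It had 35.2 ± 4.83 and 34.3 ± 5.17 CPM in the RPOA-2 pair and 37.6 ± 0.845 and 34.7 ± 3.93 CPM in the GRWD-1 pair. The 5′ peak of ceh-37, an Otx-related gene, had 8.94 ± 0.338 and 9.56 ± 1.49 CPM in the RPOA-2 pair and 8.66 ± 2.37 and 8.46 ± 0.527 CPM in the GRWD-1 pair.

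The remaining comparisons asked whether the strains differed from each other. No ceh peak was called in the difference between both depletion effects, where 0.0103% of all peaks were, between RPOA-2 depleted and GRWD-1 depleted larvae, where 0.13% were, 0.0996% higher and 0.0309% lower, or between both undepleted strains, where 0.00343% were. DESeq2 called 0 in each as well, and in the edgeR fit 6, 6 and 2 ceh peaks had an unadjusted p under 0.05, against 5.79%, 7.07% and 4.06% of all peaks. For the 114 peaks of the other homeobox genes, 0 rose and 1 fell in RPOA-2 depletion (0.877%, against 1.69% of all peaks). In GRWD-1 depletion 0 were called, against 1.38% of all peaks. In the average of both, 0 rose and 2 fell (1.75%, against 4.41% of all peaks).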

How the data were processed

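ATAC-seq libraries of 16 L1 samples were used. Per the study's methods and the file headers, fastp trimming and bowtie 2 alignment to WBcel235 preceded MACS2 peak calling on each library, and Homer merged the peak lists. The authors deposited raw counts per merged peak from featureCounts 2.0.1, without duplicates. Counts of all 29131 peaks were fitted with edgeR 4.0.16 in R 4.3.3 (TMM, filterByExpr, which removed 0 peaks). The design held the 4 genotypes and 2 factors of unwanted variation computed after RUVg from 13897 control peaks (adjusted p of at least 0.75 in DESeq2 1.42.0 for RPOA-2 depletion). CPM values are TMM-scaled and not corrected for these factors. SEs were derived from the F statistic, as the size of the log2 fold change over the root of F. Adjusted p-values cover all peaks. Genes came from the Ensembl annotation of the same assembly. The fit was tested on simulated data.

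The members and lists were chosen with earlier results of these data known. Peaks named were those called, the next 8 by p in the averaged comparison, the 5 highest and 3 lowest per length, and promoter peaks of genes with a known role. Any other peak, such as those of separated groups, was chosen after its values were seen. Alternatives changed the factors, control peaks, tool, scaling, filter, threshold, peak rule and libraries.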

Additional observations from a re-analysis of the deposited data

Results flagged for a closer look

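Of 88 groups of 4 libraries at the named ceh peaks, 3 held a library far above or far below the rest of its strain. Chance gives about 1 in 20 where groups are independent. These groups were not, since the same 16 libraries recurred at every named peak, so the count cannot be judged against that rate. All 3 libraries were above the rest. An upstream peak of ceh-100 (II:12604236-12605129) had 63.8 CPM in GRWD-1 undepleted replicate 2, against 42.3 to 44.6 in the other libraries. The 5′ peak of ceh-39 had 105.2 CPM in GRWD-1 depleted replicate 2, against 76.4 to 81.2. The 5′ peak of ceh-16 had 6.85 CPM in RPOA-2 undepleted replicate 4, against 2.13 to 2.61.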

How the results depend on the processing

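The number of ceh peaks called in RPOA-2 depletion, 1 in the reported fit (1.69% of all peaks called), was 0 with 0 factors (0.117% of all peaks), 1 factor (0.453%), control peaks from the GRWD-1 comparison (0.446%) or all peaks as control peaks (0.216%), and 0 among the 44 ceh peaks that touched no other gene. It was 2 with DESeq2 (1.93%), with only the 8 libraries of the comparison (1.86%) and at an adjusted p under 0.1 (2.68%). Leaving out each library gave 0 to 2, and 0 in 7 of 16 cases (without RPOA-2 undepleted 1, 3 or 4, RPOA-2 depleted 2 or 3, GRWD-1 undepleted 1 or GRWD-1 depleted 3). It was 2 without GRWD-1 depleted 2. Over all peaks these fits called 0.117% to 2.55%. In the average of both depletions, 3 of 76 peaks were called in the reported fit (4.41% of all peaks), 0 with 0 factors (0.632%), GRWD-1 control peaks (1.96%) or all peaks as control peaks (0.872%), and 1 with 3 factors (2.39%). Other peak sets had other sizes. The reported fit called 1 of the 40 promoter peaks (2.5%) and 1 of the 44 touching no other gene (2.27%). It called 5 of the larger set with 2000 bases upstream, which added at most 17 peaks to the 76. The called peaks that this larger set added lay upstream of ceh-48 (0.24, edgeR adjusted p = 0.00643) and ceh-87 (0.34, edgeR adjusted p = 0.0290). The first also touched C17H12.10 and C17H12.31 and the second sup-9, and both were chosen after their values were seen. Leaving out each library gave 0 to 4 (0.439% to 5.03% of all peaks), with 0 without RPOA-2 undepleted 1 or 3, RPOA-2 depleted 2 or GRWD-1 undepleted 2, and 1 without RPOA-2 depleted 4 or GRWD-1 depleted 3. The cause was not tested. The other 4 comparisons kept 0 calls under every alternative run.

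Same-numbered libraries had correlated deviations of -0.02 to 0.24 in the RPOA-2 pair, 0.04 to 0.42 in the GRWD-1 pair, 0.10 to 0.44 between the depleted strains and 0.01 to 0.28 between the undepleted strains, and 2, 3, 4 and 2 of 4 libraries correlated best with their own number. With the replicate number as a block in place of the factors, RPOA-2 depletion gave 2 calls (1.78% of all peaks) and the average 3 (3.98%). With the replicate block and the factors, they gave 1 (1.06%) and 1 (3.23%), and in the average ceh-8 (edgeR adjusted p = 0.0519) and ceh-86 (edgeR adjusted p = 0.0528) were no longer called. A shared number may be a shared batch of the study's 4, which the labels do not state.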
